A study of Citrus maxima and Citrus sinensis with 12 samples.

Results

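miR160 and miR390 are plant microRNAs that both act on auxin response factors (ARFs), the transcription factors through which auxin controls gene expression. They were taken from a small RNA study of citrus root tips as all entries of the count table whose family number is 160 or 390, which gave 5 entries with 4 distinct mature sequences, out of 172 entries with 126 distinct sequences in all. Small RNA was sequenced in 12 libraries of 4 groups of 3: C. grandis (pummelo, recorded as Citrus maxima) at 400 µM H3BO3, C. grandis at 10 µM H3BO3, C. sinensis (sweet orange) at 400 µM and C. sinensis at 10 µM. The boric acid supplied boron, with 400 µM as the toxic and 10 µM as the control level; all seedlings were 11 weeks old at the start, stood in sand culture and were irrigated for 15 weeks. No genotype beyond the species was given, and the labels describe every library as mixed RNA of 5 replicates. Whether the libraries of a group came from separate plants was not given, so p-values measure only the spread between these libraries, which may be technical.

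In Arabidopsis, miR160 directs the cleavage of transcripts of ARF10, ARF16 and ARF17, repressing factors with roles in root cap formation and lateral root growth. miR390 works through a relay: bound to AGO7, it cuts the TAS3 transcripts, which are then processed into trans-acting small interfering RNAs (tasiRNAs) that silence ARF2, ARF3 and ARF4. This pathway is known for its part in lateral root growth. The files used here hold mature miRNA counts, so neither the ARF transcripts nor the tasiRNAs were measured.

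The 4 sequences are shown because they set the identity of each member and the way the miRNAs are counted. Each is given 5′ to 3′ as in the deposited table of identified miRNAs, with the seed (bases 2 to 8) in capitals, and the 3 miR160 sequences are named after the scaffold of their locus.
miR160-s2: uGCCUGGCucccuguaugccg
miR160-s4: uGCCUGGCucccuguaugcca
miR160-s6: uGCCUGGCucccuguaugcuu
miR390: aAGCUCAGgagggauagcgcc

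The 3 miR160 sequences shared their seed and differed only at the 3′ end. Counting positions from 1 at the 5′ end, miR160-s4 differed from miR160-s2 by G21A and miR160-s6 differed from miR160-s2 by C20U and G21U. The seed GCCUGGC was found in 3 of the 126 distinct sequences, all of them miR160, and the seed AGCUCAG in 1, miR390. All 4 members were 21 nt long. miR160 began with U, like 30 of the 41 distinct sequences of 21 nt, whereas miR390 began with A, as did 3 of the 41; a 5′ A is a known feature of miR390.

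miR390 came from 2 loci with the same mature sequence and different star strands, the opposite arm of the hairpin. They are shown because they are what told the entries of miR390 apart.
star, scaffold 6: cgcuauccauccugaguuuca
star, scaffold 8: cgcuaucuauccugaguuuuc

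The stars differed at 3 positions, C8U, C20U and A21C, written as scaffold 6 base, position and scaffold 8 base. The 2 miR390 entries had equal counts in 4 libraries and differed by at most 2 counts in the others, with totals of 2907 and 2902 over the 12 libraries. Reads of the shared mature sequence were therefore counted at both loci, the loci could not be told apart, and miR390 was described by the entry on scaffold 6, which had the higher total. The hairpin windows of 250 nt lay at 30834650 to 30834899 on the minus strand of scaffold 2 for miR160-s2, at 3991036 to 3991285 on the plus strand of scaffold 4 for miR160-s4 and at 10448465 to 10448714 on the plus strand of scaffold 6 for miR160-s6. Those of miR390 lay on the plus strands of scaffold 6 (16983865 to 16984114) and scaffold 8 (24878579 to 24878828). These positions follow the deposited table; for its build the sources used here give no name, and the annotation around the loci was not analysed here. The nearest other miRNA entry was 801327 to 3439015 bases away, so none of the 5 loci formed a cluster with another entry. The predicted folding energies, in a unit that the table does not name, were −77.6 for miR160-s2, −78 for miR160-s4, −79.1 for miR160-s6, and −78.4 and −70.1 for miR390 on scaffolds 6 and 8.

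Depth was between 479090 and 1062488 counts per library, of which 282149 to 577150 were left once entries with the same sequence were merged. The table holds no transcripts that could mark the root tip, so the labelled tissue was not checked. All 5 entries passed the filter on low counts, with 52 to 380 counts per library, and levels are given in CPM (counts scaled to the library size, with trimmed-mean scaling). The members were of middle to low abundance. Ranks by mean CPM were taken among the distinct sequences that passed the filter, 120 besides the 4 members. miR390 ranked 81 and 71 in C. grandis at 400 and 10 µM and 61 and 59 in C. sinensis at 400 and 10 µM. The miR160 sequences ranked between 75 and 91 in the 4 groups. In bulk root tips, fewer cells with a miRNA and less of it per cell cannot be told apart.

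miR390 was the member that differed most between the species. At 400 µM it had 183.8, 199.2 and 194.4 CPM in the 3 C. grandis libraries, against 474.3, 393.1 and 379.1 CPM in the 3 C. sinensis libraries. At 10 µM it had 264.5, 199.7 and 345.7 CPM in C. grandis, against 577.6, 475.2 and 316.2 CPM in C. sinensis. At 400 µM every C. grandis library lay below every C. sinensis library, whereas at 10 µM the highest C. grandis library lay above the lowest C. sinensis library. The group means, each with SD over n = 3, were 192 ± 7.90 and 270 ± 73.1 CPM in C. grandis at 400 and 10 µM, and 415 ± 51.4 and 456 ± 132 CPM in C. sinensis at 400 and 10 µM. In order of level the groups ran from C. grandis at 400 µM, the lowest, through C. grandis at 10 µM and C. sinensis at 400 µM to C. sinensis at 10 µM. The steps within a species did not pass the boron test given below. The largest step was that between C. grandis at 10 µM and C. sinensis at 400 µM, whose libraries did not overlap and which was not tested, since both species and boron level changed.

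**Figure D1:**
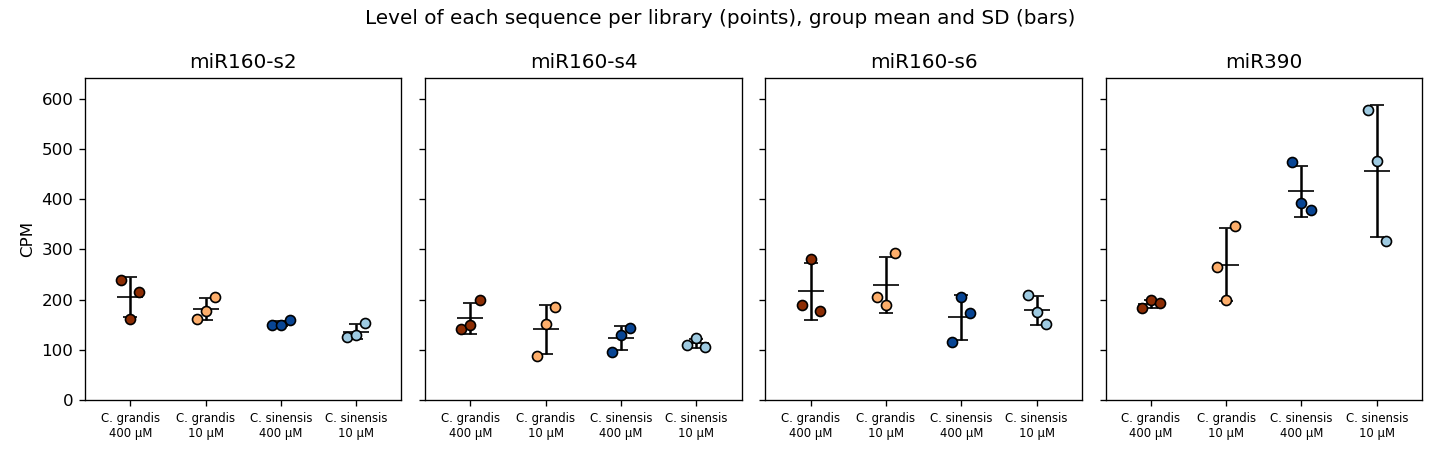
Level of each of the 4 sequences in CPM on a linear axis, with 1 point per library and bars for the group mean and SD (n = 3), for C. grandis and C. sinensis at 400 and 10 µM H3BO3. The miR390 points of C. grandis at 400 µM sit between 183.8 and 199.2 CPM, below all points of C. sinensis at 400 µM (379.1 to 474.3 CPM), while the miR160 points of the species overlap at each level except for miR160-s2 at 400 and 10 µM, where C. grandis lies above C. sinensis.

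The species were compared in an edgeR quasi-likelihood fit over all 12 libraries, with p-values adjusted over the 170 entries tested and a threshold of 0.05. Counts of both species refer to the same entries, and whether sequence differences between the species affected them was not tested. At 400 µM, miR390 in C. grandis was at 0.464 times its C. sinensis level, a log2 difference of −1.11 (SE 0.26, 95% interval −1.66 to −0.56, adjusted p = 0.00681 in edgeR). It was the 1 of 4 member sequences that passed in this comparison. Of all entries, which hold some sequences more than once, 28.8% passed, 35 higher and 14 lower in C. grandis. In a fit with each sequence counted once, 28 of 124 sequences passed. The call of miR390 held in all 14 alternative analyses run, with log2 differences from −1.52 to −1.08 and adjusted p from 2.46e-05 to 0.0262.

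At 10 µM, miR390 in C. grandis was at 0.591 times its C. sinensis level, a log2 difference of −0.76 (SE 0.25, 95% interval −1.31 to −0.21, adjusted p = 0.0401 in edgeR). Again it was the 1 of 4 member sequences that passed, where 28.2% of all entries did, 28 higher and 20 lower. With each sequence counted once, 35 of 124 sequences passed. The miR390 call was lost in 7 of 14 alternatives, among them 4 left-out libraries. The adjusted p was 0.0943 without C. grandis replicate 1, 0.118 without C. grandis replicate 2, 0.153 without C. sinensis replicate 1 and 0.103 without C. sinensis replicate 2, with log2 differences from −0.74 to −0.65, and 0.0793 with total-count scaling.

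Over both boron levels, miR390 was lower in C. grandis than in C. sinensis by 0.93 on the log2 scale (SE 0.18, adjusted p = 0.00123 in edgeR), and it ranked 25 among the 170 entries by p. This held in all 19 alternatives, with log2 differences from −1.19 to −0.89 and adjusted p from 7.85e-08 to 0.00429. Of the 4 member sequences, 1 was called higher and 1 lower in C. grandis in this mean comparison. Of all entries 54.7% passed, 56 higher and 37 lower, so that a share of 2 in 4 was near that of all entries. With each sequence counted once, 55 of 124 sequences passed, and miR160-s2, the member called higher, did not. Because the median of all entries moved with the scaling, at 10 µM between −0.04 and 0.27, miR390 was also set against it. Relative to the median entry miR390 was at −1.29 at 400 µM (−1.39 to −1.19 over all settings run) and at −0.86 at 10 µM (−1.06 to −0.69).

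The miR160 sequences had small positive species differences. miR160-s2 had 238.7, 161.9 and 216.3 CPM in C. grandis at 400 µM, against 150.7, 150.1 and 159.4 CPM in C. sinensis at 400 µM. At 10 µM it had 160.9, 177.9 and 205.9 CPM in C. grandis, against 125.8, 130.0 and 154.3 CPM in C. sinensis. All 3 C. grandis libraries lay above all 3 C. sinensis libraries at each boron level, by a narrow margin. The log2 difference was 0.42 at 400 µM (adjusted p = 0.136), 0.41 at 10 µM (adjusted p = 0.172) and 0.42 over both levels (SE 0.15, 95% interval 0.09 to 0.74, adjusted p = 0.0358 in edgeR), so that only the mean comparison passed. That call was lost in 15 of 19 alternatives, DESeq2 among them (adjusted p = 0.207), and for 10 of 12 left-out libraries, all but C. grandis 10 µM replicate 1 (adjusted p = 0.0340) and C. sinensis 10 µM replicate 3 (adjusted p = 0.0404). Over these alternatives the log2 difference stayed above 0 and ran from 0.20 to 0.46. It fell to 0.25 without C. grandis 400 µM replicate 2 and to 0.20 and 0.21 without C. grandis 10 µM replicates 2 and 3. Without C. sinensis 400 µM replicates 1, 2 and 3 it was 0.23, 0.24 and 0.20, and without C. sinensis 10 µM replicate 1 it was 0.20. In these left-out fits the median of all entries fell too, to between −0.04 and 0.03, beside 0.18 with all libraries. Relative to that median miR160-s2 was at 0.23 with all libraries and between 0.17 and 0.29 over all settings run.

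miR160-s4, the least abundant member in every group, had 142.3, 149.4 and 198.8 CPM in C. grandis at 400 µM, against 96.8, 129.5 and 143.4 CPM in C. sinensis at 400 µM. At 10 µM it had 88.6, 151.0 and 184.7 CPM in C. grandis, against 110.8, 123.8 and 106.7 CPM in C. sinensis. The species overlapped at both levels, and C. grandis 10 µM replicate 1 was the lowest of all 12 libraries. The log2 difference was 0.40 at 400 µM (adjusted p = 0.276 in edgeR), 0.31 at 10 µM (adjusted p = 0.441) and 0.36 over both levels (adjusted p = 0.150), and it passed only in the mean comparison without C. grandis 10 µM replicate 1 (0.48, adjusted p = 0.0436). With a library left out it ran from 0.02 (without C. sinensis replicate 1) to 0.49 at 400 µM, from 0.07 (without C. grandis replicate 3) to 0.56 at 10 µM and from 0.10 (without C. grandis 10 µM replicate 3) to 0.48 over both levels. The median of all entries moved in these fits too. Relative to it miR160-s4 ran from 0.05 to 0.30 at 400 µM over all settings run. At 10 µM this range was 0.01 to 0.38, and over both levels 0.10 to 0.28.

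miR160-s6, the most abundant miR160 sequence, had 190.5, 281.7 and 178.3 CPM in C. grandis at 400 µM, against 115.8, 205.2 and 174.2 CPM in C. sinensis at 400 µM. At 10 µM it had 205.8, 188.8 and 293.3 CPM in C. grandis, against 208.9, 176.3 and 152.4 CPM in C. sinensis. Here too the species overlapped at both levels. The log2 difference was 0.39 at 400 µM (adjusted p = 0.290 in edgeR), 0.36 at 10 µM (adjusted p = 0.354) and 0.37 over both levels (adjusted p = 0.129), and none of these passed in any alternative run; at 400 µM its sign turned in 2 left-out fits, without C. grandis replicate 2 (−0.22) and without C. sinensis replicate 1 (−0.03). The lowest left-out values were 0.12 at 10 µM, without C. grandis replicate 3, and 0.01 over both levels, without C. grandis 400 µM replicate 2. Relative to the median of all entries, which moved too, miR160-s6 ran from −0.09 to 0.38 at 400 µM over all settings run. At 10 µM this range was 0.07 to 0.34, and over both levels 0.05 to 0.29. For the 4 member sequences together, the median log2 difference was 0.40 at 400 µM, 0.33 at 10 µM and 0.36 over both levels, beside medians of 0.18, 0.10 and 0.18 over all entries.

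**Figure D2:**
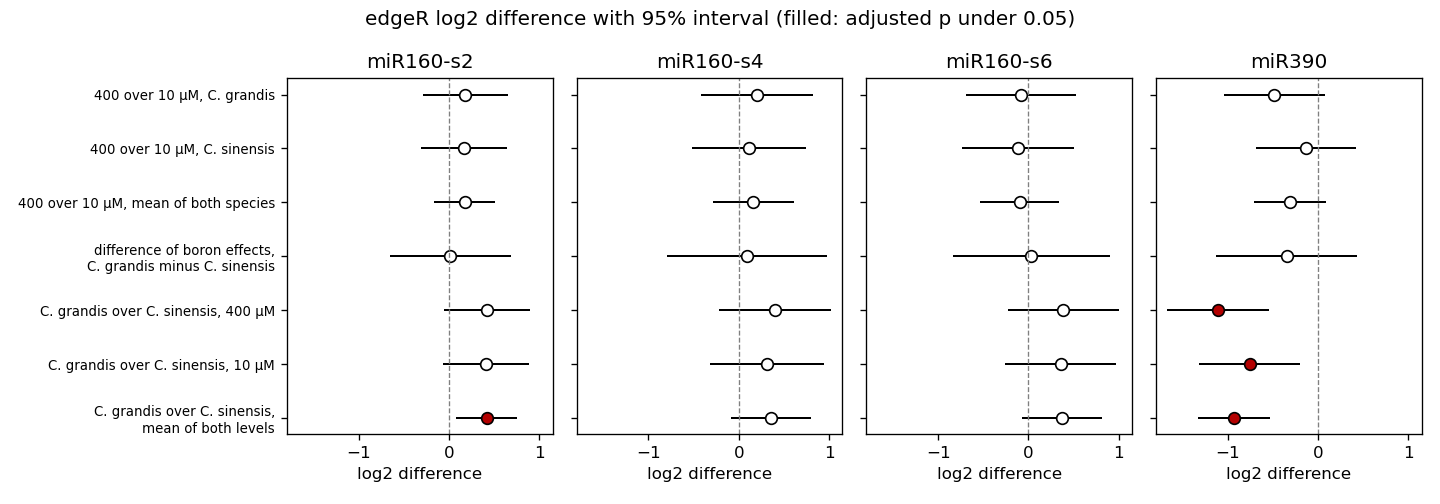
Fitted log2 difference of each of the 4 sequences in each of 7 comparisons, with the 95% interval of the edgeR fit as a bar and a filled symbol where the adjusted p was under 0.05. The filled symbols are miR390 in the species comparisons at 400 µM (−1.11), at 10 µM (−0.76) and over both levels (−0.93), and miR160-s2 over both levels (0.42); all boron comparisons are open.

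The boron comparisons asked how the toxic level altered these miRNAs in each species. In C. grandis, miR390 was at 192 ± 7.90 CPM under 400 µM against 270 ± 73.1 CPM under 10 µM (SD, n = 3 each), and its groups did not overlap, although the highest library at 400 µM (199.2 CPM) came close to the lowest at 10 µM (199.7 CPM). The log2 difference was −0.49 (SE 0.25, 95% interval −1.04 to 0.06), which did not pass (adjusted p = 0.336 in edgeR). It stayed below 0 in all 16 alternatives, from −0.82 to −0.45, with adjusted p from 0.0990 to 0.767. The most negative values came with replicate 2 of the 400 µM group left out (−0.82) or replicate 2 of the 10 µM group left out (−0.82), where the median of all entries moved too, to −0.35 and −0.10, beside 0.07 with all libraries. Relative to that median miR390 was at −0.56 with all libraries and between −0.71 and −0.40 over all settings run.

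The 3 miR160 sequences differed little between boron levels in C. grandis. miR160-s2 averaged 206 ± 39.5 and 182 ± 22.7 CPM at 400 and 10 µM, miR160-s4 163 ± 30.8 and 141 ± 48.8 CPM at 400 and 10 µM, and miR160-s6 217 ± 56.5 and 229 ± 56.1 CPM at 400 and 10 µM (SD, n = 3 each). The groups overlapped for all 3. The log2 differences in edgeR were 0.18 for miR160-s2, 0.21 for miR160-s4 and −0.08 for miR160-s6 (adjusted p = 0.754, 0.754 and 0.882), and each of the 3 signs turned in some alternative, that of miR160-s2 and miR160-s4 with total-count scaling (−0.06 and −0.01) and that of miR160-s6 without 400 µM replicate 1 or 3. With total-count scaling the median of all entries was −0.17, beside 0.07 in the fit given. Relative to the median, miR160-s2 ran from 0.0006 to 0.35 over all settings run. On that scale miR160-s4 ran from −0.08 to 0.31 and miR160-s6 from −0.28 to 0.02. In C. grandis 0 of the 4 member sequences passed, against 1.18% of all entries, 0 higher and 2 lower; without adjustment 0 of the 4 and 31 of the 170 entries had p under 0.05 in edgeR. miR390 had an unadjusted p of 0.0428 in DESeq2, which called 0 of the 4, and in edgeR of 0.0155 with total-count scaling, 0.0405 with median-of-ratios scaling and 0.0259 with no filter, beside 0.0782 in the fit given.

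In C. sinensis, miR390 was at 415 ± 51.4 CPM under 400 µM against 456 ± 132 CPM under 10 µM (SD, n = 3 each), with overlapping groups. The log2 difference was −0.14 (SE 0.25, 95% interval −0.68 to 0.41, adjusted p = 0.924 in edgeR). miR160-s2 averaged 153 ± 5.18 and 137 ± 15.4 CPM at 400 and 10 µM, miR160-s4 123 ± 24.0 and 114 ± 8.94 CPM at 400 and 10 µM, and miR160-s6 165 ± 45.4 and 179 ± 28.4 CPM at 400 and 10 µM. Their groups also overlapped, with log2 differences of 0.17 for miR160-s2, 0.12 for miR160-s4 and −0.11 for miR160-s6 (adjusted p from 0.893 to 0.955 in edgeR). With single libraries left out the signs of miR390, miR160-s4 and miR160-s6 turned, to at most 0.05 for miR390 without 10 µM replicate 1. In C. sinensis 0 of the 4 sequences passed, beside 0% of all entries; 0 of the 4 and 3 of the 170 entries had an unadjusted p under 0.05 in edgeR, and DESeq2 called 0 of the 4 with 0 at an unadjusted p under 0.05.

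Averaged over both species, the boron difference of miR390 was −0.31 on the log2 scale (SE 0.18, 95% interval −0.70 to 0.08, adjusted p = 0.453 in edgeR). miR160-s2 was at 0.17 (−0.15 to 0.50), miR160-s4 at 0.16 (−0.27 to 0.60) and miR160-s6 at −0.10 (−0.53 to 0.33). Here 0 of the 4 passed, beside 0.588% of all entries, and by both edgeR and DESeq2 0 of the 4 had an unadjusted p under 0.05.

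Whether the species differed in their boron response was tested as the C. grandis minus the C. sinensis log2 difference. It was −0.35 for miR390 (SE 0.36, 95% interval −1.12 to 0.42), 0.01 for miR160-s2 (−0.64 to 0.67), 0.09 for miR160-s4 (−0.78 to 0.96) and 0.03 for miR160-s6 (−0.82 to 0.89), each with adjusted p = 0.987 in edgeR. The signs of the miR160 values turned with total-count scaling and in several other alternatives, whereas that of miR390 stayed negative in all 20, with a size that ran from −0.73 without C. sinensis 10 µM replicate 1 to −0.15 without C. sinensis 10 µM replicate 3. Again 0 of the 4 passed, beside 0% of all entries, and by both edgeR and DESeq2 0 of the 4 had an unadjusted p under 0.05; among all 170 entries 9 had one in edgeR.

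The balance of the families was described by the ratio of miR390 counts to the summed counts of the 3 miR160 sequences, which does not depend on how libraries are scaled. It was 0.322, 0.336 and 0.328 in C. grandis at 400 µM and 0.581, 0.386 and 0.505 in C. grandis at 10 µM. In C. sinensis it was 1.31, 0.811 and 0.795 at 400 µM and 1.30, 1.10 and 0.765 at 10 µM. All 6 C. grandis libraries lay below all 6 C. sinensis libraries, and within C. grandis the 400 µM ratios were each lower than the lowest 10 µM ratio, while the C. sinensis groups overlapped. The means were 0.410 ± 0.109 in C. grandis and 1.01 ± 0.255 in C. sinensis (SD, n = 6 each). By group they were 0.328 ± 0.00723 and 0.491 ± 0.0983 in C. grandis at 400 and 10 µM, and 0.970 ± 0.290 and 1.06 ± 0.269 in C. sinensis at 400 and 10 µM (SD, n = 3 each). The ratio was formed after the levels were known and was given no test. The summed miR160 level averaged 586 ± 12.5 and 552 ± 118 CPM in C. grandis at 400 and 10 µM, and 442 ± 68.1 and 430 ± 16.1 CPM in C. sinensis at 400 and 10 µM, so that the numerator was lower and the denominator higher in C. grandis.

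**Figure D3:**
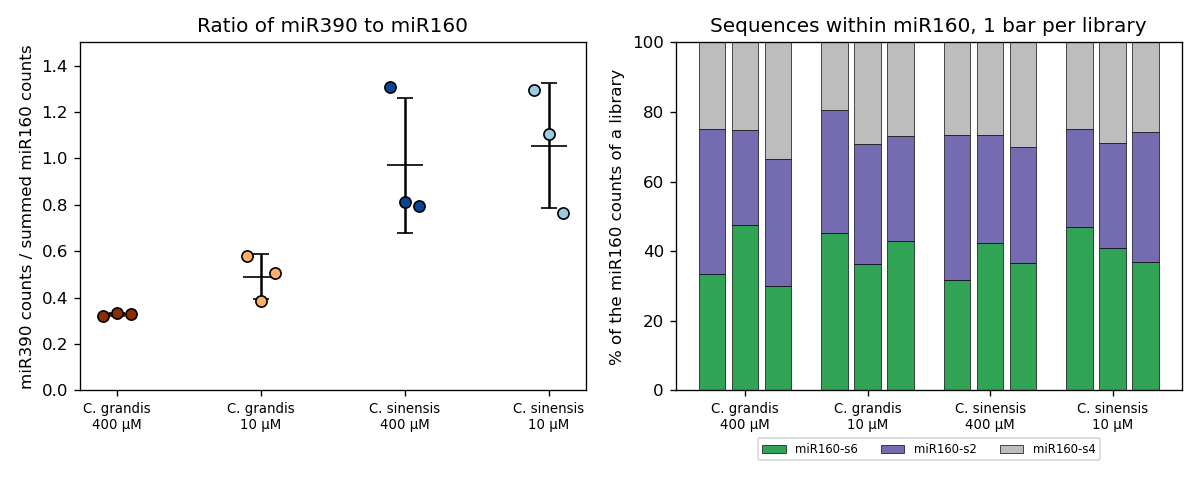
Left, miR390 counts divided by the summed miR160 counts, 1 point per library with group mean and SD (n = 3); right, the share of each miR160 sequence in the miR160 counts, 1 bar per library. C. grandis ratios lie between 0.322 and 0.581, below all C. sinensis ratios (0.765 to 1.31), while the shares of miR160-s6, the lowest part of each bar, lie between 30.0% and 47.5%.

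Within miR160, the 3 sequences kept similar shares in both species. They differ only at bases 20 and 21, and whether reads were counted at more than 1 of them could not be checked. This limit also holds for their summed counts. As a mean over 6 libraries, miR160-s6 held 39.2% of the miR160 counts in C. grandis and 39.2% in C. sinensis. miR160-s2 held 34.2% in C. grandis and 33.6% in C. sinensis, and miR160-s4 26.5% in C. grandis and 27.1% in C. sinensis. By boron level, miR160-s6 held 37.0 ± 9.28% at 400 µM and 41.5 ± 4.53% at 10 µM in C. grandis, and 36.9 ± 5.23% at 400 µM and 41.6 ± 5.04% at 10 µM in C. sinensis (SD, n = 3 each). miR160-s2 held 35.2% and 33.3% at 400 and 10 µM in C. grandis and 35.3% and 31.9% at 400 and 10 µM in C. sinensis, and miR160-s4 27.9% and 25.2% in C. grandis and 27.8% and 26.5% in C. sinensis at the same levels. The mean share of miR160-s6 was thus lower, and those of the other sequences higher, at 400 µM in both species, by less than the SD of the libraries of at least 1 group in each case; no test was made. Single libraries varied more than the group means. The share of miR160-s6 ran from 30.0% in C. grandis 400 µM replicate 3 (Wilson 95% interval 25.8 to 34.7) to 47.5% in C. grandis 400 µM replicate 2 (42.5 to 52.5), so that both extremes fell in 1 group. These intervals cover counting error only. Over the 12 libraries the log2 CPM of miR160-s2 and miR160-s4 had a Pearson r of 0.64, that of miR160-s4 and miR160-s6 0.47, and that of miR160-s2 and miR160-s6 0.22. miR390 was inversely related to miR160-s2 (r = −0.76), with −0.47 for miR160-s4 and −0.27 for miR160-s6. These correlations are descriptions over libraries that share species and scaling.

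Other miRNAs that bear on auxin or on tasiRNAs were taken by family number: miR167, which acts on ARF6 and ARF8 in Arabidopsis, miR164, which acts on NAC1 and CUC transcripts, miR393 of the auxin receptors, and the tasiRNA triggers miR173 and miR828. Entries were found for miR167 (4 entries, 3 sequences) and miR164 (3 entries, 2 sequences). For miR393, miR173 and miR828 there were 0 entries in the table as given here. Of the miR164 sequences, ath-miR164b-3p is named for the 3′ arm of the hairpin and was taken by its family number only. Whether it acts on the same transcripts was not examined. All 5 sequences were tested, in the same fit. In the C. grandis boron, C. sinensis boron, mean boron and difference comparisons 0 of the 5 passed. Of all entries 1.18%, 0%, 0.588% and 0% passed, in that order. Their median log2 difference was 0.62 in C. grandis, beside 0.07 over all entries, and 0.17 in C. sinensis, beside −0.00 over all entries. In C. grandis the 3 miR167 sequences were at 0.62 to 0.64, ath-miR164a was at 0.18 (adjusted p = 0.740 in edgeR) and ath-miR164b-3p was at −1.86 (adjusted p = 0.273). Nearest to the threshold in C. grandis was mdm-miR167h, with 891 ± 44.6 CPM under 400 µM against 570 ± 89.9 CPM under 10 µM (SD, n = 3 each) and a log2 difference of 0.64 (adjusted p = 0.0788 in edgeR). The smallest p in C. sinensis was that of ath-miR164a (0.21, adjusted p = 0.887). In the mean over species and in the difference of effects it was that of mdm-miR167h (0.39 and 0.50, adjusted p = 0.146 and 0.841). Without C. grandis 400 µM replicate 2 the values of mdm-miR167h were 0.36 in C. grandis, 0.23 in the mean and 0.26 in the difference. The median of all entries moved too, to −0.35, −0.19 and −0.20 in that order, beside 0.07, 0.04 and 0.07 with all libraries.

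Between the species at 400 µM, 3 of the 5 were called higher in C. grandis and 0 lower, all of miR167, the opposite sign to miR390. Over all entries 28.8% passed here, 35 higher and 14 lower. ccl-miR167a averaged 22229 ± 5485 CPM in C. grandis and 13854 ± 1663 CPM in C. sinensis at 400 µM (SD, n = 3 each), a log2 difference of 0.68 (adjusted p = 0.0283 in edgeR). ath-miR167a-5p was at 0.77 (adjusted p = 0.0149) and mdm-miR167h at 0.65 (adjusted p = 0.0196). The call was lost in 11 of 14 alternatives for ccl-miR167a, in 8 for ath-miR167a-5p and in 10 for mdm-miR167h. It was lost for each of the 3 without C. grandis replicate 2 (0.31, 0.41 and 0.32 in that order) and without C. sinensis replicate 1 (0.33, 0.41 and 0.39), replicate 2 (0.52, 0.63 and 0.41) or replicate 3 (0.36, 0.46 and 0.35). Without C. grandis replicate 1 it was lost for ccl-miR167a (0.48) and ath-miR167a-5p (0.63), and without C. grandis replicate 3 for mdm-miR167h (0.62). The median of all entries moved too, from 0.18 with all libraries to −0.14 without C. grandis replicate 2. Without C. sinensis replicates 1, 2 and 3 that median was −0.05, 0.01 and −0.11. Without C. grandis replicates 1 and 3 it was 0.21 and 0.19.

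At 10 µM, 1 of the 5 was called higher in C. grandis and 0 lower, a share below the 28.2% of all entries that passed. This was ath-miR164b-3p, with 61.1, 140.1 and 921.0 CPM in C. grandis, against 38.4, 23.8 and 13.3 CPM in C. sinensis, a log2 difference of 3.90 (adjusted p = 0.0131 in edgeR). The groups did not overlap, and the C. grandis libraries differed widely among themselves. Without C. grandis replicate 3, the highest library, the difference was 2.01 (adjusted p = 0.0844), and the call was also lost without C. sinensis replicate 2 (adjusted p = 0.0558) or replicate 3 (adjusted p = 0.0504). Over both levels 5 of the 5 were called higher in C. grandis and 0 lower, with a median of 0.47 beside 0.18 over all entries. Of all entries 54.7% passed, 56 higher and 37 lower. Of these 5, only ath-miR164b-3p passed in all 19 alternatives (1.76 to 3.04; 1.76 without C. grandis 10 µM replicate 3); the calls of the other 4 were lost in 9 to 13 of 19, among them 7 to 9 of the 12 left-out libraries.

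**Figure D4:**
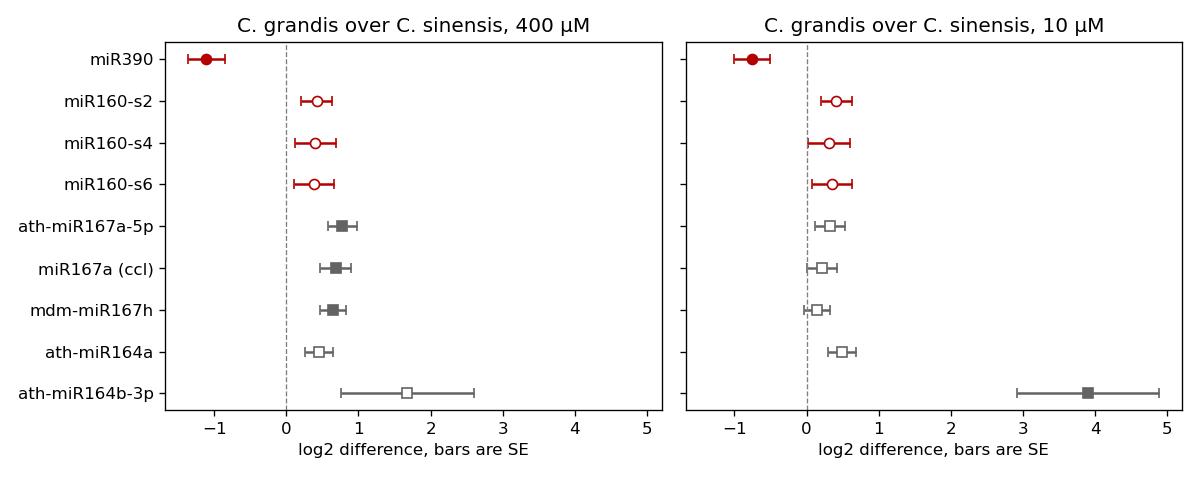
Fitted log2 difference between C. grandis and C. sinensis at 400 µM (left) and at 10 µM (right) for the 4 member sequences (circles) and the 5 sequences of miR167 and miR164 (squares), with SE as bars and filled symbols where the adjusted p was under 0.05. miR390 is the 1 sequence on the negative side in both panels, at −1.11 and −0.76, and ath-miR164b-3p has the widest bar.

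The patterns most like those of the most abundant member of each family were found by Pearson correlation of log2 CPM over the 12 libraries, among 120 other distinct sequences. miR390 was most like csi-miR3951 (r = 0.92), the unnamed 24-nt entry scaffold_3_17886 (r = 0.91) and ghr-miR7496a (r = 0.87). miR160-s6 was most like ccl-miR168 (r = 0.79), ath-miR164b-3p (r = 0.77) and ccl-miR396 (r = 0.72). The libraries share species and depth, and these values are descriptions with no test.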

How the data were processed

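Small RNA of root tips was extracted with TRIzol, made into libraries with the TruSeq Small RNA kit and sequenced single-end on a HiSeq instrument, per the labels' protocols. DESeq, without a version or a role, is the only tool in the submitters' processing notes; the sources used here name no aligner, no miRNA caller, no trimming step and no build of the genome. The deposited expression table holds raw counts per miRNA entry, made by the authors without normalisation, and reads of a sequence with several loci were counted at each. The score of the hairpin prediction was deposited by the authors in the table of identified miRNAs, which gave names, positions and sequences. The deposited tables of boron-responsive miRNAs and of predicted targets were not used here.

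The members and lists were chosen with earlier results of these data known. Counts were tested with edgeR 4.0.16 and limma 3.58.1 (R 4.3.3), with trimmed-mean scaling, a count minimum of 10 (170 of 172 entries kept), 1 mean per group over all 12 libraries and a quasi-likelihood test, two-sided, with Benjamini-Hochberg adjustment over all tested entries and a threshold of 0.05. The biological coefficient of variation was 28.1%, and standard errors are approximate, derived from F. CPM used the scaled library sizes and, for log values, a prior count of 2. All members were named, with called members of the other pathway families (otherwise the smallest p) and the 3 nearest patterns per family. The fit was also run on counts simulated from its own estimates, with independent libraries and entries. Such data cannot show how it does with paired libraries or repeated entries.

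Replicate numbers were checked for pairing by the correlation of deviations from group means. In C. sinensis, libraries of equal number correlated across boron levels (0.40, 0.24 and 0.22), each more than with the other replicate numbers. This was not tested, so it cannot show that they were paired, and the labels state no pairing. The replicate block changed no call of a member there. In C. grandis the values were −0.12, −0.23 and 0.20. The alternatives tried were total-count and median-of-ratios scaling, identical entries merged, DESeq2 1.42.0, a mean CPM minimum of 10, no filter, replicate blocks, only the 6 libraries compared (with the replicate block added after the data were seen) and each library left out.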

Additional observations from a re-analysis of the deposited data

How the results depend on the processing

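In the member results 396 of 476 recomputed values kept their direction and their side of the threshold, 22 lost the call, 1 gained it and 57 changed sign; for the other families 146 of 223 kept both and 77 lost the call. The count of called members was unchanged in the boron comparisons and at 400 µM between species. Between species at 10 µM it was 0 instead of 1 with total-count scaling, with the replicate block (miR390 adjusted p = 0.0512) and with only the 6 libraries compared, and 0 to 1 with a library left out. Over both levels it was 1 instead of 2 with median-of-ratios scaling, merged entries, DESeq2, no filter and the mean CPM filter, and 1 to 3 with a library left out. Between the species, libraries of equal replicate number had correlations from −0.15 to 0.30, and the block changed no other call of a member. The values that changed sign were miR160 differences and 1 of miR390, none past the threshold. The furthest was −0.47, for miR160-s6 in the difference of boron effects. In C. grandis boron, miR160-s2 was −0.064 with total-count scaling, −0.054 unfiltered and −0.054 with the mean CPM filter, and −0.037 to 0.14 with a library left out. There miR160-s4 was −0.0094 with total-count scaling and −0.039 to 0.30 with a library left out, and miR160-s6 −0.63 to 0.040. In C. sinensis boron, miR160-s4 was −0.0012 with the 6 libraries and the replicate block, an alternative chosen after seeing the data, and −0.021 to 0.19 with a library left out; the range was −0.40 to 0.022 for miR160-s6 and −0.34 to 0.050 for miR390. For the mean of both species it was −0.0080 to 0.21 for miR160-s4. In the difference of boron effects miR160-s2 was −0.017 with median-of-ratios and −0.20 with total-count scaling, −0.032 merged, −0.016 in DESeq2, −0.18 with no filter, −0.18 with the mean CPM filter, −0.0017 with the replicate block within species and −0.22 to 0.048 with a library left out. For miR160-s4 these were −0.092 with total-count scaling, −0.063 with no filter, −0.063 with the mean CPM filter, and −0.18 to 0.18. For miR160-s6 they were −0.0039 with median-of-ratios and −0.15 with total-count scaling, −0.040 merged, −0.0070 in DESeq2, −0.093 with no filter, −0.093 with the mean CPM filter and −0.47 to 0.15 with a library left out. Between species at 400 µM, miR160-s6 was −0.22 to 0.51 with a library left out. These values are not relative to the median of all entries, which moved too. Apart from left-out fits, that median ran from −0.17 to 0.07 in C. grandis boron and from −0.14 to 0.08 in the difference of boron effects. The cause of the sign changes was not tested. CPM on totals that count each sequence once were 1.65 to 2.02 times the levels given. The pseudocount alternative for normalised values was not run, since the table holds counts. With 52 to 380 counts per member and library and 3 libraries per group, differences whose intervals span 0 could not be told from 0.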
